A study of Mus musculus with 45 samples.

Results

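The genes described here are the 8 core enzymes and partners that write, copy and remove 5-methylcytosine in mouse DNA, namely Dnmt1, Uhrf1, Dnmt3a, Dnmt3b, Tet1, Tet2, Tet3 and Tdg. They were chosen by name, out of 35675 genes with a count, and all 8 had reads in every one of the 45 libraries and passed the filter on low counts. Poly-A RNA was sequenced from 15 groups of 3 libraries, and every group carried the transgene Tg:Pax7-nGFP (a nuclear GFP that reports on Pax7, the factor that marks muscle stem cells) on a C57BL6;DBA2 background. Mouse embryonic fibroblasts (MEFs) with doxycycline-inducible MyoD, the muscle-determining transcription factor, were taken untreated and after 2, 4, 6, 8 or 10 days of doxycycline, either by itself (MyoD alone) or together with a set of small molecules written F/R/C in the labels. Bulk induced myogenic progenitor cells (iMPCs) had been through 13 days of doxycycline with F/R/C and were then kept in F/R/C without doxycycline. Flow sorting on the reporter gave Pax7-positive iMPCs and Pax7-positive myoblasts, and unsorted primary myoblasts (bulk myoblasts) made up the last group. Whether same-group libraries came from separate cultures or animals is not given in the sources used here, so the spread between them may be partly technical.

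Methylation of cytosine in CpG pairs is laid down on unmethylated DNA by the de novo enzymes Dnmt3a and Dnmt3b. At each S phase Uhrf1 recognises the half-methylated CpG pairs behind the replication fork and recruits Dnmt1, which methylates the new strand. The 3 Tet proteins oxidise 5-methylcytosine, and Tdg, a DNA glycosylase, cuts out the more oxidised forms so that base excision repair can restore plain cytosine. In muscle, activation of myogenic genes is known to go with loss of methylation at their regulatory regions, and progenitors that divide must copy their methylation pattern while post-mitotic myotubes need not. The libraries measure transcripts, not methylation.

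In the GENCODE M21 annotation of GRCm38 the genes lie at chr9:20907209-20959888 (Dnmt1), chr17:56303321-56323486 (Uhrf1), chr12:3806007-3914443 (Dnmt3a), chr2:153649450-153687730 (Dnmt3b), chr10:62804570-62908996 (Tet1), chr3:133463679-133545139 (Tet2), chr6:83362373-83459084 (Tet3) and chr10:82629828-82650799 (Tdg). RefSeq promoter windows of 300 bases, ending 50 bases after each start site (build GRCm38.p6), were found for all 8 genes, 13 windows in all. Each was searched on both strands for the E2F motif forms TTTCCCGC, TTTGGCGC, TTTCGCGC and TTTGCCGC, for the cAMP response element TGACGTCA and for the MyoD E-box CAGCTG. E2F factors drive S-phase genes, and CREB binds the cAMP response element. The E2F forms together occur in 2.26% of 32851 windows, the TTTCGCGC form alone in 0.323%, the cAMP response element in 1.79% and the E-box in 16.3%.

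The maintenance pair shared the TTTCGCGC form (Dnmt1 had a second E2F form 33 bases after the same start), and no other of the 8 genes had an E2F form in its windows. It lay 219 bases before a Dnmt1 start site, within a UTR of another annotated Dnmt1 transcript. In Uhrf1 it lay 185 bases before the downstream start site, outside any annotated UTR or coding sequence of Uhrf1. Exons of non-coding transcripts were not checked. The Tdg window held the cAMP response element 135 bases before its start site, and the E-box was found only in Tet3, 28 bases after its start. These 3 stretches are shown because Dnmt1, Uhrf1 and Tdg are among the genes called in the average of F/R/C against MyoD alone below. They are Dnmt1 at chr9:20952824-20952853 on the minus strand, Uhrf1 at chr17:56304063-56304312 on the plus strand and Tdg at chr10:82629588-82629827 on the plus strand, each 5′ to 3′ along the gene with the match in capitals (in Dnmt1 it is the reverse complement of the form).
Dnmt1: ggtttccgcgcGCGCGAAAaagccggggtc
Uhrf1: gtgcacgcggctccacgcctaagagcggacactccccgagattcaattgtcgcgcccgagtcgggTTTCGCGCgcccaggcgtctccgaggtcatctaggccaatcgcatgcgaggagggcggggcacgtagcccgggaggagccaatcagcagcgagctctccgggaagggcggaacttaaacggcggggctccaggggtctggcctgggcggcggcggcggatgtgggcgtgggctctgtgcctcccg
Tdg: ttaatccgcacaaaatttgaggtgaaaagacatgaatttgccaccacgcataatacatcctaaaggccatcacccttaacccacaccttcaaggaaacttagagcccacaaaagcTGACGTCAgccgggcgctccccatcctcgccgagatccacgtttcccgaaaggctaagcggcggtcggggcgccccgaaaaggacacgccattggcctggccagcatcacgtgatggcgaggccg
A match is a description of letters, and factor binding was not measured. CpG pairs were dense in several windows, with 57 in the Tet2 window, a number reached by 0.152% of all windows.

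Library totals ran from 15.6 to 36.3 M reads. Myod1 stood at 8.84 CPM (reads per 1 M reads of the library, after scaling between libraries) or less in MEFs and at 543 CPM or more in every doxycycline library, and Pax7 at 263 CPM or more in every sorted library, matching the labels. Some libraries stand apart within their groups. A panel of 10 S-phase genes (the Mcm2 to Mcm7 helicase genes, Rrm2, Cdc6, Tyms and Slbp; mean log2 CPM) was lowest in replicate 2 of MyoD alone on every day, for example 3.26 against 5.06 and 5.01 on day 10. A panel of 12 muscle differentiation genes read 5.77 in replicate 3 of the bulk myoblasts against 10.39 and 9.87 in the others, and 2.95 in replicate 1 of the MEFs against -1.42 and -1.63. Sorted libraries were also quantified by the authors with another fragment length setting (the gap between transcript length and effective length, plus 1, had a median of 152.81 bases in unsorted and 180.03 in sorted libraries), so sorting and that setting cannot be told apart. In bulk samples, fewer cells of a type and less RNA per cell cannot be told apart either.

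Dnmt1, the maintenance methyltransferase, was highest in Pax7-positive iMPCs, at 454, 439 and 442 CPM, and lowest in MyoD alone. MEFs held 171, 117 and 92.1 CPM. Under MyoD alone the 3 libraries read 54.4, 44.4 and 64.8 CPM on day 4 and 90.3, 29.98 and 84.6 CPM on day 10. The same days with F/R/C read 80.8, 82.4 and 106 CPM, then 234, 185 and 105 CPM. All 3 F/R/C libraries lay above all 3 MyoD-alone libraries on each of the 5 days, which was so for 5.54% of the 17325 genes tested. Group means spanned a ratio of 8.47, and of the 14 pairs of neighbours in the order of groups only the step from Pax7-positive iMPCs to the next group (F/R/C day 10) was free of overlap.

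Uhrf1, the reader that brings Dnmt1 to replicating DNA, had the widest range, with a ratio of 19.4 between its highest and lowest group means. Pax7-positive iMPCs held 307, 297 and 372 CPM. MyoD alone held 20.6, 9.67 and 19.9 CPM on day 6 and 45.6, 7.09 and 44.4 CPM on day 10, with replicate 2 lowest on both days. With F/R/C the same days gave 56.7, 84.0 and 84.6 CPM, then 187, 154 and 74.5 CPM. From day 4 on the lowest F/R/C value exceeded the highest of MyoD alone, as was the case for 22.9%, 23.1%, 21.8% and 22% of genes on days 4, 6, 8 and 10. MEFs ranged from 31.2 to 107 CPM, replicate 1 being the high library, so their Uhrf1 level overlapped most groups.

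Dnmt3a, a de novo methyltransferase, had a different order of groups. It was highest with F/R/C on day 10 at 114, 134 and 131 CPM, and lowest in sorted myoblasts at 24.1, 42.3 and 14.9 CPM and in bulk myoblasts at 28.2, 30.1 and 24.6 CPM. MyoD alone reached 77.2, 113 and 84.4 CPM on day 4, above the 49.8, 66.0 and 73.4 CPM of F/R/C that day, an order without overlap that 23.4% of genes had. By day 10 the order had turned, with 71.8, 91.9 and 55.8 CPM in MyoD alone. Every neighbouring pair of groups in the order overlapped.

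Dnmt3b, the other de novo enzyme, was scarce, at 0.585 to 6.74 CPM as group means and with 6 to 170 reads a library. Its highest values were in Pax7-positive iMPCs at 5.50, 6.87 and 7.86 CPM and with F/R/C on day 10 at 6.60, 5.89 and 2.90 CPM. MyoD alone on day 10 held 1.25, 0.694 and 1.05 CPM. Its levels over the groups followed those of the maintenance pair more than those of Dnmt3a. The Pearson r over the 15 group means of log2 CPM was 0.932 with Uhrf1 and 0.267 with Dnmt3a. The groups share their cells and treatments, and no test was made of these coefficients.

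The 3 Tet dioxygenases differed from each other in where they were high. Tet1 was scarce and peaked in iMPCs, at 18.5, 19.4 and 17.9 CPM when sorted and 14.0, 7.30 and 19.2 CPM in bulk, against 4.26, 2.79 and 1.65 CPM in MEFs. Tet2 was highest in bulk iMPCs at 94.5, 68.8 and 78.5 CPM, while sorted Pax7-positive iMPCs held 36.3, 28.6 and 19.5 CPM. MEFs had the least Tet2, at 26.0, 14.9 and 15.4 CPM. Tet3 held 147, 139 and 165 CPM in Pax7-positive iMPCs, above every other group, and its next highest group was MyoD alone on day 4 at 79.4, 115 and 106 CPM.

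Tdg, the glycosylase of the removal pathway, was lowest in MEFs at 33.8, 35.4 and 34.4 CPM, below every library of the other groups. The share of all genes with an extreme group free of overlap, as here and for Dnmt1, Uhrf1 and Tet3 above, was not computed. MyoD alone on day 8 held 45.5, 47.5 and 45.4 CPM, and F/R/C on the same day 98.9, 114 and 81.6 CPM. Pax7-positive iMPCs held 139, 110 and 140 CPM.

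**Figure D1:**
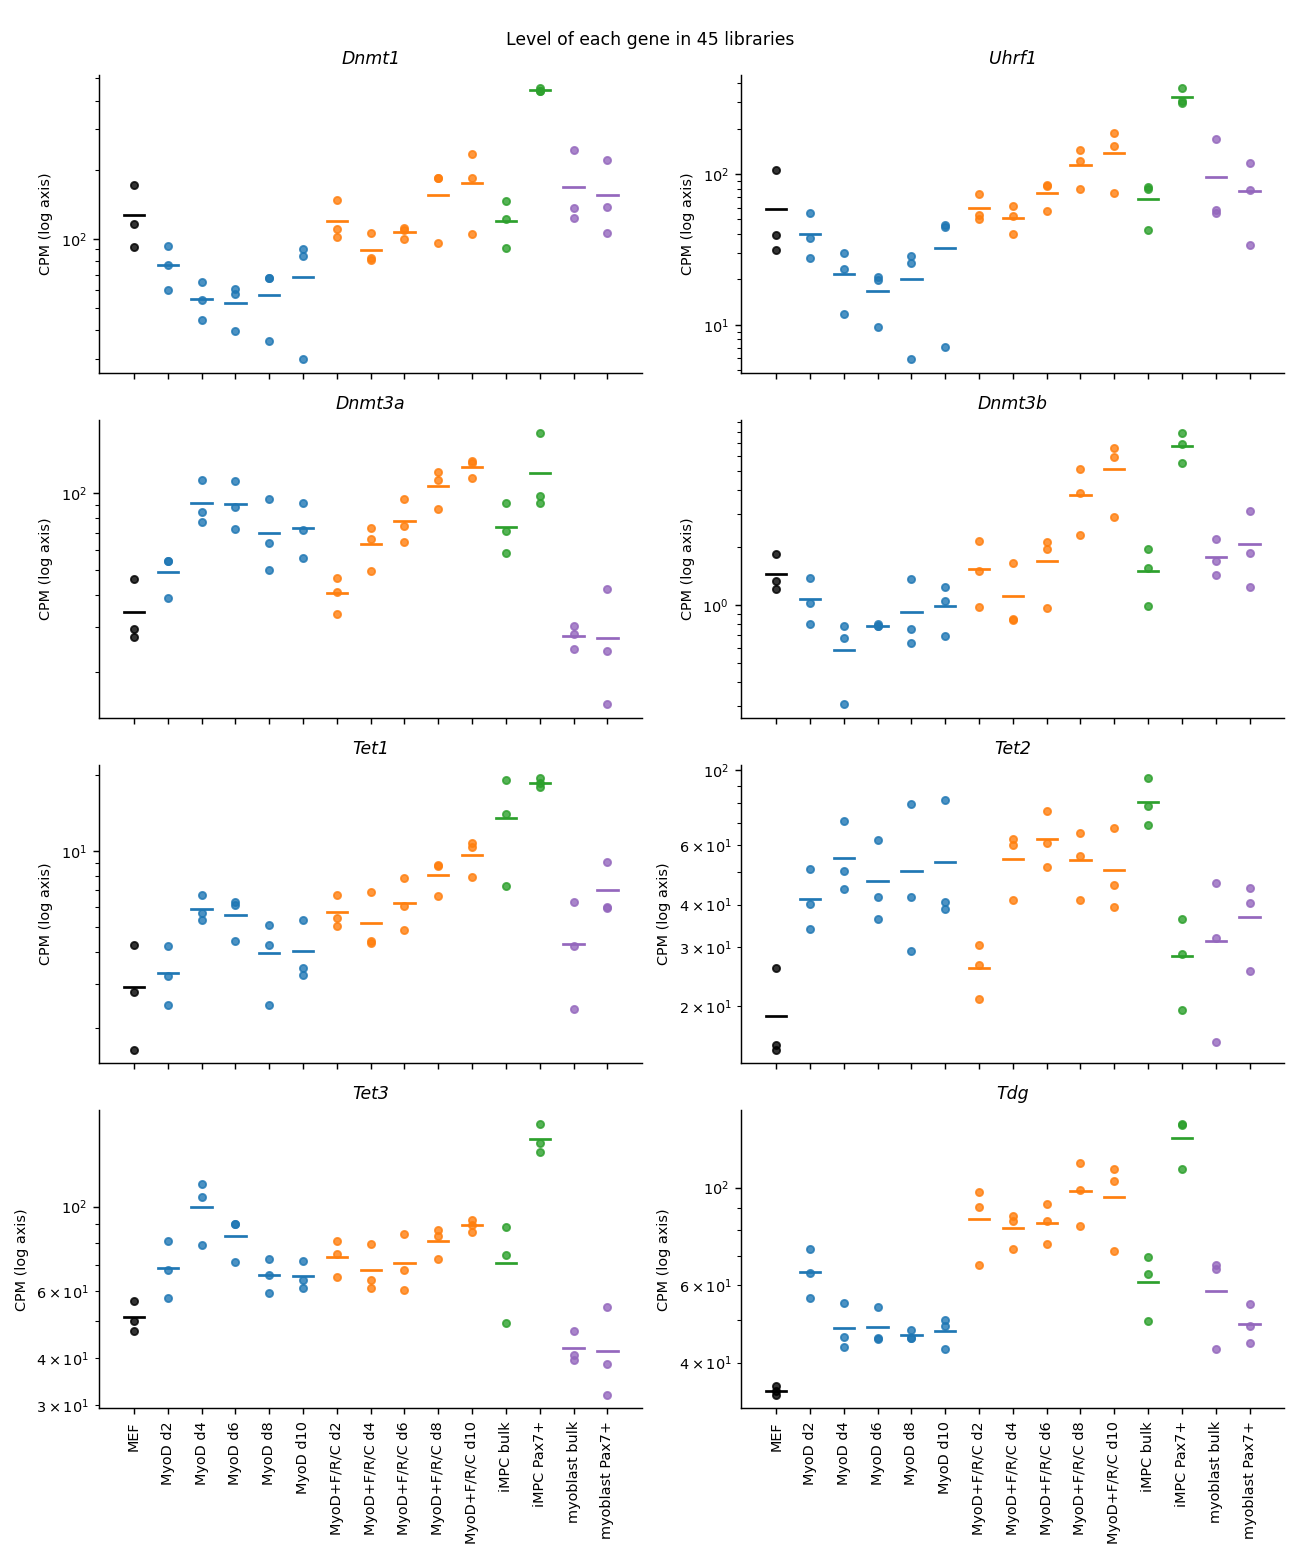
Level of each of the 8 genes (CPM, log axis) in the 45 libraries, by group; points are libraries and lines group means (n = 3). By group mean, Dnmt1, Uhrf1, Dnmt3b, Tet1, Tet3 and Tdg are highest in Pax7-positive iMPCs, while Tet2 is highest in bulk iMPCs and Dnmt3a with F/R/C on day 10.

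Per transcript length (the authors' TPM), the maintenance pair dominated in Pax7-positive iMPCs, with 170 ± 11.01 TPM for Dnmt1 and 174 ± 21.4 TPM for Uhrf1 (SD, n = 3), followed by Tdg at 99.4 ± 11.9 TPM. Dnmt3a stood at 32.7 ± 8.04 TPM and Tet3 at 19.3 ± 1.07 TPM there. In MyoD alone on day 10 the levels were closer together. Tdg had 32.3 ± 1.49 TPM, Dnmt1 23.8 ± 12.4, Dnmt3a 21.4 ± 6.57 and Uhrf1 17.9 ± 12.4 TPM. Tet1 and Dnmt3b were the lowest of the 8 in both groups, at 3.66 and 2.60 TPM in Pax7-positive iMPCs and at 0.734 and 0.497 TPM in MyoD alone on day 10.

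F/R/C was compared with MyoD alone at each time. Myod1 itself was lower with F/R/C, without overlap on days 2, 4 and 6 (means of 959, 1106 and 965 CPM against 2625, 3290 and 2245 CPM) and with overlap on days 8 and 10. The 12 fibroblast markers moved both ways, with 4 higher and 3 lower in the 5-day average: their summed level on day 6 was 2635 to 5334 CPM with F/R/C against 13083 to 29404 CPM, whereas their mean log2 CPM was 6.55 to 7.41 against 5.85 to 7.13. The part of either in the results below was not tested. Averaged over the 5 days, 5 of the 8 genes rose at an adjusted p under 0.05 and none fell, where 61.5% of all genes tested were called, 28.7% as higher. The median log2 fold change of the 8 was 0.71, against -0.03 for all genes. The call count grew with time: 0, 2, 3, 5 and 6 of the 8 on days 2, 4, 6, 8 and 10, beside 8.09%, 23.2%, 26.8%, 33.2% and 41% of all genes.

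In the maintenance pair, Uhrf1 rose by 1.72 ± 0.26 on the log2 scale (the SE follows each ±, and adjusted p = 1.03e-06) and Dnmt1 by 1.04 ± 0.16 (adjusted p = 8.69e-07) over the 5 days. By day, the Uhrf1 difference was 0.56, 1.24, 2.16, 2.52 and 2.09 from day 2 to day 10, and it was called from day 6 on. The Dnmt1 difference was 0.65, 0.72, 1.02, 1.44 and 1.35, also called from day 6 on. No single library removed a Uhrf1 call or the Dnmt1 calls of days 8 and 10, while the Dnmt1 call of day 6 was lost without MyoD replicate 1 or 2 or F/R/C replicate 2 or 3 (0.90 to 1.16, adjusted p from 0.0528 to 0.121). Without replicate 2 of every time-course group, Dnmt1 lost its call on day 6 (0.85, adjusted p = 0.183), day 8 (1.09, adjusted p = 0.07) and day 10 (1.00, adjusted p = 0.077), and Uhrf1 on day 6 (1.82, adjusted p = 0.0636) and day 10 (1.59, adjusted p = 0.0655). The day 10 calls were also lost in a fit to the 6 libraries compared (Dnmt1 1.42, adjusted p = 0.0691, and Uhrf1 2.16, adjusted p = 0.0612). Over all alternatives the day 10 values ranged from 1.00 to 1.76 for Dnmt1 (adjusted p from 3.37e-04 to 0.077) and from 1.59 to 2.56 for Uhrf1 (from 6.43e-04 to 0.0655), and the 5-day average stayed called for both in each of 37 alternatives. The main fit treats libraries of different days as independent. In same-numbered pairs of libraries, the Uhrf1 and Dnmt1 ratios were largest in replicate 2 on each of the 5 days. On day 10 they were 2.04, 4.44 and 0.75 for Uhrf1 and 1.37, 2.62 and 0.31 for Dnmt1 (log2). If same-numbered libraries share a culture across days, the adjusted p-values of the 5-day average, also those below, may be too small.

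Among the de novo enzymes, Dnmt3b rose by 1.38 ± 0.19 over the 5 days (adjusted p = 1.76e-07) and Dnmt3a did not pass (0.07 ± 0.13, adjusted p = 0.641). Dnmt3b was called on day 8 (2.02 ± 0.42) and day 10 (2.35 ± 0.42, adjusted p = 6.75e-05). On day 6 it stood at 1.10 (adjusted p = 0.0525), and with the replicate number as a block it passed (1.11, adjusted p = 0.0491). Its difference widened by 1.83 ± 0.59 from day 2 to day 10 (adjusted p = 0.0461, beside 8.65% of genes called), a call lost when any of 10 of the 12 libraries was left out. Dnmt3a went from -0.54 ± 0.29 on day 4 (adjusted p = 0.189) to 0.79 ± 0.29 on day 10 (adjusted p = 0.0295). That day 10 call was lost without replicate 3 of MyoD alone (0.75, adjusted p = 0.0752), and its change from day 4 to day 10 was 1.32 ± 0.41 (adjusted p = 0.0526, range over the alternatives 0.021 to 0.397). With the replicate block that change, a contrast added after the values were seen, passed (1.32, adjusted p = 0.021).

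Of the Tet genes only Tet1 rose in the 5-day average, by 0.62 ± 0.15 (adjusted p = 7.50e-04). It was called on day 8 (1.03 ± 0.34, adjusted p = 0.0193) and day 10 (1.27 ± 0.34, adjusted p = 0.00355). Without replicate 3 of MyoD alone the day 8 call was lost (0.79, adjusted p = 0.118), as it was without F/R/C replicate 1 (0.97, adjusted p = 0.0506). Tet2 had an average of -0.05 ± 0.16 (adjusted p = 0.816) and was called on no day, and its F/R/C libraries lay below those of MyoD alone on day 2, at 21.1, 30.3 and 26.6 CPM against 34.0, 50.9 and 40.1 CPM. Non-overlap in that direction held for 19.8% of genes on day 2.

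Tet3 fell on day 4 (-0.55 ± 0.18, adjusted p = 0.0257) and stood at 0.44 ± 0.18 on day 10 (adjusted p = 0.0509, range over the alternatives 0.017 to 0.125), so that its 5-day average was 0.01 ± 0.08 (adjusted p = 0.95). The change between these days was 0.99 ± 0.26 (adjusted p = 0.0208, beside 5.18% of genes called), a contrast added after the values were seen. Its libraries on day 4 read 79.4, 115 and 106 CPM in MyoD alone and 60.9, 64.2 and 79.5 CPM with F/R/C. On day 10 they read 64.1, 71.9 and 61.2 against 85.9, 89.5 and 92.2 CPM. The day 4 call did not hold when MyoD alone replicate 2 or 3, or F/R/C replicate 1 or 2, was left out (-0.42 to -0.48), and the change between days was lost without F/R/C day 4 replicate 1 (0.96, adjusted p = 0.0505).

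Tdg rose by 0.81 ± 0.08 over the 5 days (adjusted p = 9.03e-11), with 0.40 on day 2 (not called, adjusted p = 0.14), then 0.75, 0.79, 1.09 and 1.01 on days 4 to 10, each called. From day 4 on all F/R/C libraries lay above all MyoD-alone libraries. That was so for 22.9%, 23.1%, 21.8% and 22% of genes on days 4, 6, 8 and 10. Without replicate 2 of every time-course group the day 4 call was lost (0.69, adjusted p = 0.0827). On day 2 edgeR called 0 of the 8 genes, with 2 (Tdg and Tet1) at an unadjusted p under 0.05, and DESeq2 also called 0. A fit to the 6 libraries of that day called Tet2 (-0.65, adjusted p = 0.0415), and within same-numbered pairs of libraries Tet2 had log2 ratios of -0.69, -0.75 and -0.59. Dnmt1, Uhrf1, Tet1 and Tdg were higher with F/R/C in 3 of 3 such pairs on day 2 and Dnmt3a was lower in 3 of 3. The share of all genes with 3 of 3 pairs in the same direction was not computed, and the labels do not state this pairing.

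**Figure D2:**
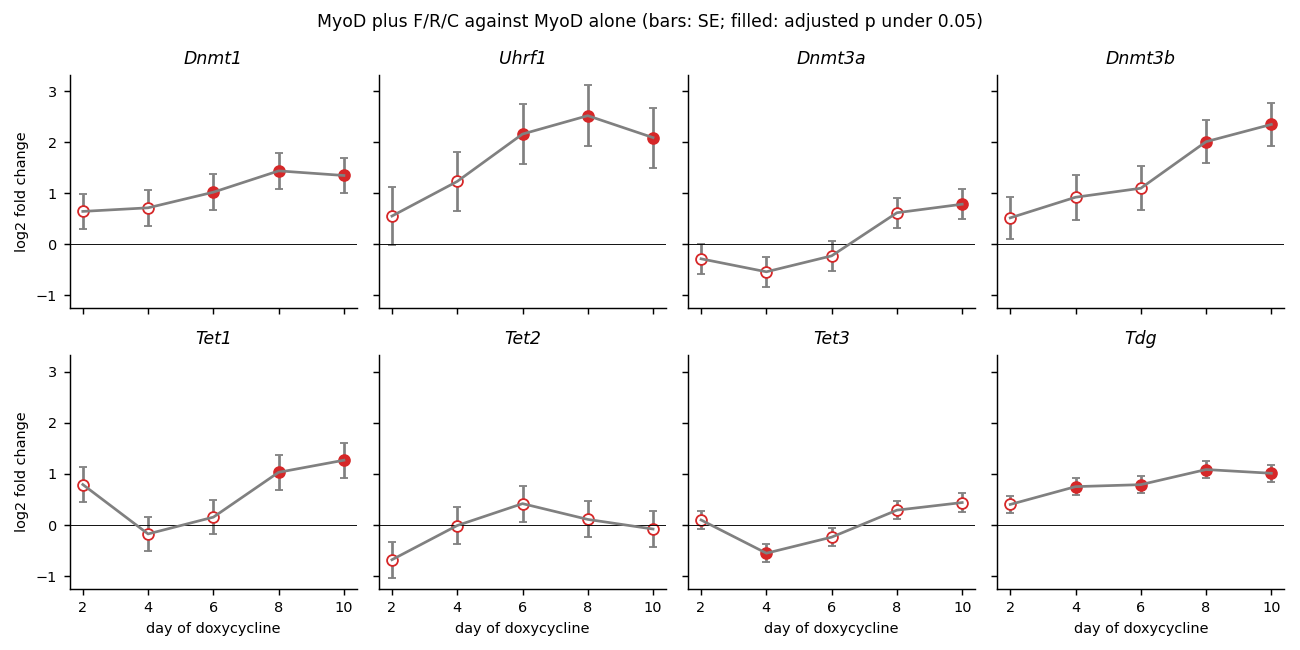
Log2 fold change of F/R/C against MyoD alone by day for each gene, with SE bars; filled points have an adjusted p under 0.05. Dnmt1, Uhrf1, Dnmt3b and Tdg lie above 0 on all 5 days, Tet3 and Dnmt3a lie below 0 on days 4 and 6 and above 0 on days 8 and 10, and Tet2 has no filled point.

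Against the starting MEFs, 2 of the 8 genes were higher after 2 days of MyoD alone (Tdg and Tet2) and 3 after 10 days (Dnmt3a, Tet2 and Tdg), beside 36.5% and 29.4% of genes called and 20.5% and 19.3% called as higher. Tdg rose by 0.89 ± 0.17 on day 2 (adjusted p = 1.10e-04) and Tet2 by 1.15 ± 0.36 (adjusted p = 0.0127), a call that was lost without MEF replicate 2 or 3 or MyoD replicate 2 (0.96 to 1.00). On day 10 Tet2 stood 1.51 ± 0.36 higher (adjusted p = 0.00193) and Dnmt3a 1.09 ± 0.29 higher (adjusted p = 0.00539). Dnmt3a lost that call without MyoD day 10 replicate 2 (0.88, adjusted p = 0.0576), and the Tdg call of day 10 (0.45 ± 0.17, adjusted p = 0.043) was lost whichever library was left out. Dnmt1 was at -0.89 ± 0.35 (adjusted p = 0.0508) and passed without MEF replicate 3 or MyoD replicate 1 or 3 (-1.09 to -1.16, lowest adjusted p = 0.0348), but read -0.54 (adjusted p = 0.346) without MyoD replicate 2. Uhrf1 stood at -0.87 ± 0.57 (adjusted p = 0.256), and at -0.14 without MEF replicate 1.

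With F/R/C, 3 of the 8 were higher than in MEFs on day 2 (Tdg, Tet1 and Tet3) and 6 on day 10, beside 34% and 53.2% of genes called, and 28.3% called as higher on day 10. Day 10 values were 1.88 ± 0.30 for Dnmt3a, 1.80 ± 0.41 for Dnmt3b, 1.73 ± 0.35 for Tet1, 1.46 ± 0.17 for Tdg, 1.43 ± 0.36 for Tet2 and 0.80 ± 0.18 for Tet3, with adjusted p-values of at most 0.0013. Dnmt1 stood at 0.46 ± 0.35 (adjusted p = 0.266) and Uhrf1 at 1.23 ± 0.57 (adjusted p = 0.0696), which passed without MEF replicate 1 (2.08, adjusted p = 0.00973) or F/R/C replicate 3 (1.67, adjusted p = 0.0257). The day 2 calls of Tet1 (0.97) and Tet3 (0.53) were each lost on leaving out MEF replicate 2 or 3 or F/R/C replicate 2 or 3. All of these comparisons share the MEF libraries, and those of the previous paragraph share them too.

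Bulk iMPCs, which no longer receive doxycycline, were compared with MEFs, with F/R/C day 10 and with bulk myoblasts. Against MEFs, 5 of the 8 were higher, beside 54.2% of genes called and 28.5% called as higher. These were Tet1 (2.21 ± 0.35), Tet2 (2.10 ± 0.37), Dnmt3a (1.10 ± 0.29), Tdg (0.82 ± 0.17) and Tet3 (0.47 ± 0.18, adjusted p = 0.0275, lost without MEF replicate 3 or iMPC replicate 1 or 3). Against F/R/C day 10, Dnmt3b fell by 1.76 on the log2 scale (SE 0.41, adjusted p = 0.00239) and Tdg fell by 0.64 (SE 0.17, adjusted p = 0.00628), beside 20.5% of genes called and 11.5% called as lower. The Tdg call was lost without F/R/C replicate 1 (-0.52, adjusted p = 0.0539) or iMPC replicate 2 (-0.56, adjusted p = 0.0505).

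Against bulk myoblasts, 4 of the 8 genes were higher in bulk iMPCs, beside 32.9% of genes called and 16.1% called as higher. Tet1 rose by 1.64 ± 0.34 (adjusted p = 4.29e-04), Dnmt3a by 1.42 ± 0.30 (adjusted p = 4.46e-04), Tet2 by 1.37 ± 0.36 (adjusted p = 0.0038) and Tet3 by 0.74 ± 0.18 (adjusted p = 0.00209). With a fit to these 6 libraries alone only Dnmt3a kept its call, and Tet1 (1.59, adjusted p = 0.0947), Tet2 (1.32, adjusted p = 0.0776) and Tet3 (0.69, adjusted p = 0.118) did not. Dnmt1 (-0.49 ± 0.34), Uhrf1 (-0.48 ± 0.56), Dnmt3b (-0.25 ± 0.40) and Tdg (0.06 ± 0.17) did not pass. Fibroblast markers also differed here: 11 of 12 were higher and 1 (Fn1) lower in bulk iMPCs, and Lum had no reads in bulk myoblasts, with panel means of 6.23 to 7.19 against 1.30 to 2.20 in bulk myoblasts, and their part in these results was not tested.

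Sorting on the Pax7 reporter allows Pax7-positive cells of both origins to be compared. Their differentiation panels differed, at 7.53, 7.97 and 9.46 in sorted myoblasts, highest in replicate 3, and 5.98, 6.78 and 6.18 in sorted iMPCs. Pax7-positive iMPCs exceeded Pax7-positive myoblasts in 7 of the 8 genes, beside 47.5% of genes called and 22.5% called as higher. Dnmt3a was higher by 2.15 ± 0.30 (adjusted p = 9.15e-07), from 24.1, 42.3 and 14.9 CPM in myoblasts to 97.4, 91.5 and 172 CPM. Tet3 was higher by 1.85 ± 0.19 (adjusted p = 4.06e-09), Tdg by 1.40 ± 0.17 (adjusted p = 8.82e-08), Dnmt1 by 1.52 ± 0.35, Dnmt3b by 1.69 ± 0.41 and Tet1 by 1.41 ± 0.34. Uhrf1 was higher by 2.08 ± 0.58 (adjusted p = 0.00394). Tet2 did not pass (-0.39 ± 0.36, adjusted p = 0.381), with 36.3, 28.6 and 19.5 CPM in iMPCs and 25.5, 44.8 and 40.4 CPM in myoblasts. All 7 calls held when any 1 library was left out. In the same comparison 9 of 10 S-phase genes and 4 of 12 fibroblast markers were higher and 9 of 12 differentiation markers were lower, and their part in these differences was not tested.

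Within iMPCs, the sorted fraction differed from bulk in 7 of the 8 genes, beside 48.7% of genes called, 21% as higher and 27.6% as lower. Uhrf1 (2.25 ± 0.59), Dnmt3b (2.16 ± 0.41), Dnmt1 (1.89 ± 0.36), Tdg (1.09 ± 0.17) and Tet3 (1.08 ± 0.18) were higher, and 0.0021 was the largest of their adjusted p-values. Dnmt3a was higher by 0.70 ± 0.29 (adjusted p = 0.0444), a call lost without sorted replicate 3 (0.40, adjusted p = 0.295) or without bulk replicate 1 or 2. Tet2 was lower, by -1.52 ± 0.36 (adjusted p = 8.81e-04), and Tet1 did not pass (0.46 ± 0.33). In the same comparison 10 of 12 differentiation markers and 7 of 12 fibroblast markers were lower in the sorted cells, and their part in the Tet2 difference was not tested. Within myoblasts, edgeR called 0 of the 8 genes between sorted and bulk cells, beside 11.9% of all genes. There Tet1 alone had an unadjusted p under 0.05, and DESeq2 called 0. Pax7 itself overlapped between these myoblast groups, at 401 to 639 CPM in bulk and 349 to 813 CPM in sorted cells. In iMPCs Pax7 read 39.3 to 81.3 CPM in bulk and 263 to 351 CPM in sorted cells. Sorting thus raised Pax7 without overlap in iMPCs but not in myoblasts, and the part of this in the sorting results was not tested.

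The effect of sorting differed between iMPCs and myoblasts in 6 of the 8 genes when tested directly, in a contrast added after the values were seen (32.9% of all genes called). The difference was 2.56 ± 0.81 for Uhrf1, 2.01 ± 0.49 for Dnmt1, 1.94 ± 0.57 for Dnmt3b, 1.34 ± 0.24 for Tdg, 1.11 ± 0.26 for Tet3 and -1.76 ± 0.50 for Tet2. All 10 S-phase genes of the panel were called as higher in the same contrast. The Uhrf1 difference was lost without replicate 3 of the bulk myoblasts (1.81, adjusted p = 0.096) or of the sorted myoblasts (2.20, adjusted p = 0.0523). In a fit to the 12 libraries compared, Dnmt3b (1.97, adjusted p = 0.0521), Tet2 (-1.74, adjusted p = 0.0542) and Tet3 (1.13, adjusted p = 0.0555) did not pass.

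**Figure D3:**
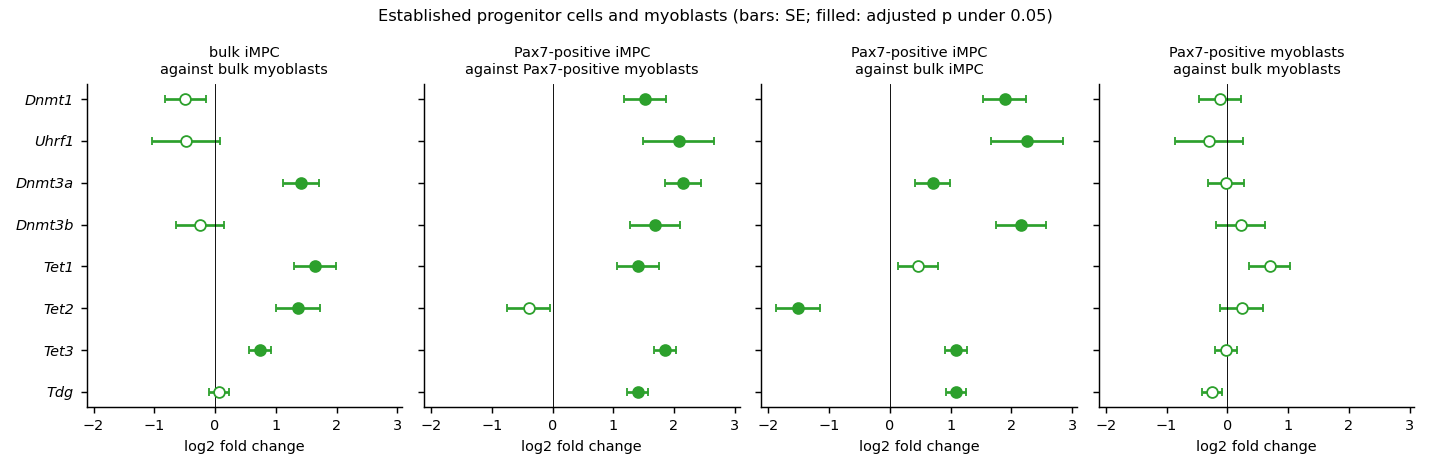
Log2 fold change of each gene in 4 comparisons of iMPCs and myoblasts, bulk or sorted for Pax7, with SE bars; filled points have an adjusted p under 0.05. Of the 8 genes, 7 are higher in Pax7-positive iMPCs than in Pax7-positive myoblasts, Tet2 is lower in sorted than in bulk iMPCs, and no point is filled between sorted and bulk myoblasts.

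The maintenance pair ran alongside the S-phase panel. With F/R/C, 10 of 10 S-phase genes and 12 of 12 proliferation genes rose in the 5-day average, with medians of 1.17 and 1.36, and on day 10 the S-phase panel read 6.50, 6.24 and 5.46 against 5.06, 3.26 and 5.01. Pax7-positive iMPCs had the highest panel values, 7.56, 7.40 and 7.54, and the highest Dnmt1 and Uhrf1. The genes whose 15 group means of log2 CPM were most like those of Dnmt1 were Mcm7 (Pearson r 0.991), Mcm4 and Chaf1a. For Uhrf1 they were Mcm3 (0.988), Espl1 and Nmral1. These values describe groups that share cells and treatments. The part of S-phase activity in the differences of the 8 genes was not tested.

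**Figure D4:**
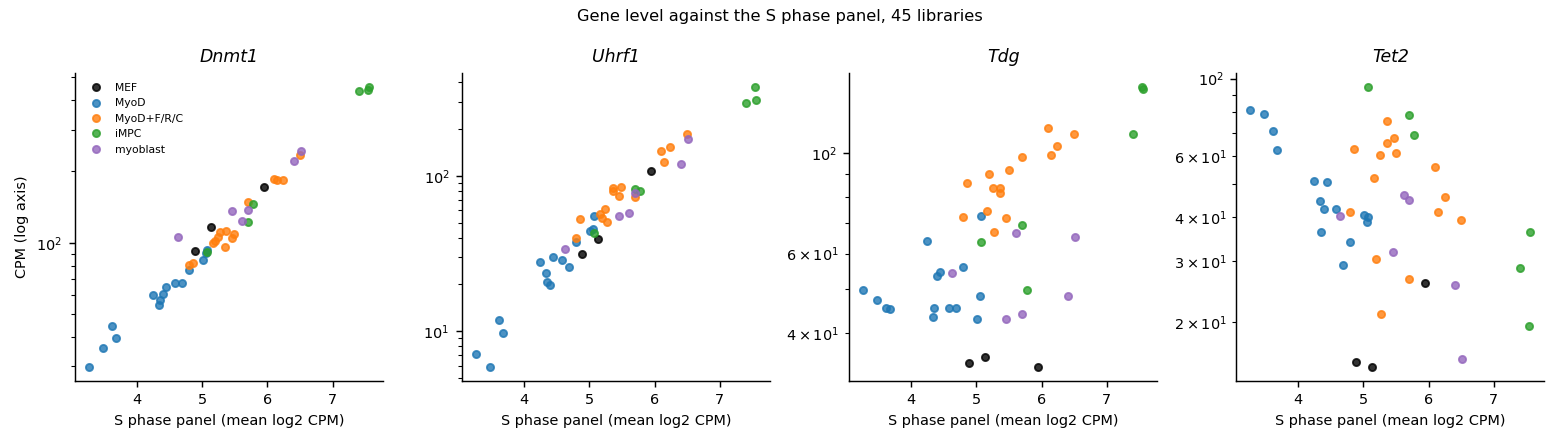
Level of 4 genes (CPM, log axis) against the S-phase panel (mean log2 CPM of 10 genes) in 45 libraries, coloured by cell class. Dnmt1 and Uhrf1 are highest in Pax7-positive iMPCs, which have the highest panel values (7.40 to 7.56), while the same libraries hold 19.5 to 36.3 CPM of Tet2.

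The other genes had other closest neighbours. By the same measure Dnmt3b was closest to Pus7l (0.985), Pmf1 and Cdt1, Dnmt3a to Nrk (0.952), Casp9 and Bap1, and Tdg to Pcbp1 (0.963), Dnajc11 and Slc44a5. Tet1 was closest to Map2 (0.946), Tet2 to Tmem170b (0.942) and Tet3 to Agrn (0.918). Among the 8 genes themselves Dnmt1 and Uhrf1 were most alike (0.968), and Dnmt3b was like both (0.914 with Dnmt1 and 0.932 with Uhrf1). Dnmt3a went most with Tet3 (0.854), and Tet2 with Dnmt1 had the most negative value (-0.39).

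Other genes of the pathway were read from lists by role, in the 5-day average of F/R/C against MyoD alone, where 61.5% of all genes were called, 28.7% as higher and 32.8% as lower. Of 7 partners of maintenance, 6 rose and none fell, among them Cdca7 and Hells, which form a chromatin remodeller needed for methylation of packed DNA, the replication clamp Pcna and its binding partner Pclaf. Cdca7 rose by 2.00 ± 0.25 (adjusted p = 4.19e-08), and on day 10 held 55.3, 54.6 and 38.1 CPM with F/R/C against 5.92, 1.44 and 8.47 CPM. Pclaf rose by 1.48, Hells by 1.24 and Pcna by 0.89. Uhrf2, the relative of Uhrf1, did not pass (-0.07 ± 0.07), and it and the repair polymerase Polb were named after their values were seen.

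Of 8 readers of methylated DNA, 5 fell and 1 rose, a share called near the 61.5% of all genes. Mbd2 fell by 0.68 on the log2 scale (SE 0.06, adjusted p = 1.17e-10), Zbtb38 fell by 0.53 and Zbtb4 fell by 0.46. Mbd4, which unlike the others is also a glycosylase of thymine opposite guanine, rose by 1.05 ± 0.12, with 7.08, 7.64 and 7.66 CPM on day 10 against 2.36, 1.54 and 3.31 CPM.

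Of 10 base excision repair genes, which hold other glycosylases and the steps after Tdg, 6 rose and 1 fell, also near the 61.5% of all genes. Ung, the uracil glycosylase, rose by 1.59 ± 0.14 (adjusted p = 5.69e-11), the strand-break sensor Parp1 by 1.15, the scaffold Xrcc1 by 0.80 and Neil2, a glycosylase of oxidised bases, by 0.61, while the polymerase Polb fell by 0.42. Among genes of methyl donor supply, Mtr, methionine synthase, rose by 0.89 ± 0.08, Mat2a, which makes S-adenosylmethionine, by 0.58, and Ahcy, which clears its spent form, by 0.51. Of 3 tested co-factor and related genes, Trdmt1 (0.52) and Trim28 (0.36) rose and Zfp57 fell by 0.52.

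Of 9 tested genes linked to demethylation, 2 rose (Gadd45a, 0.46, and Gadd45g, 0.42) and 2 fell (Gadd45b and Cxxc5), a smaller share than the 61.5% of all genes. Gadd45b fell by 1.00 (SE 0.17, adjusted p = 9.32e-06). It read 20.3, 26.9 and 18.6 CPM in MyoD alone on day 4 against 5.25, 5.32 and 7.33 CPM with F/R/C, and on day 10 the treatments overlapped, at 11.3, 19.5 and 8.78 against 9.54, 11.7 and 14.6 CPM. Of 11 germline genes that promoter methylation is known to keep silent in somatic cells, 10 did not pass the filter on low counts, and the highest of them, Taf7l, had at most 14 reads in a library. The gene that passed, Ddx4, was not called in the 5-day average (-0.27 ± 0.39, adjusted p = 0.569). It was lower than in MEFs with F/R/C on day 2 (-2.36 ± 0.87, adjusted p = 0.0349), where MEF replicate 1 held 4.66 CPM (106 reads) and the other MEF libraries 0.186 and 0.127 CPM. Ddx4 was also lower in Pax7-positive than in bulk iMPCs (-2.58 ± 0.92, adjusted p = 0.0197).

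In Pax7-positive iMPCs against Pax7-positive myoblasts, where 47.5% of all genes were called (22.5% as higher and 25% as lower), 4 of the 7 maintenance partners were higher and none lower, with Cdca7 at 3.25 ± 0.58 and Pclaf at 1.87 ± 0.63. Of the 9 demethylation-linked genes 1 was higher and 5 were lower, among them Gadd45g (-2.29 ± 0.28), Gadd45a (-1.90 ± 0.44) and Cxxc4 (-2.65 ± 0.59). Readers split, with 2 higher and 3 lower, Zbtb4 lowest at -2.85 ± 0.38. Of the 10 base excision repair genes 4 were higher, among them Ung (2.59 ± 0.33) and Parp1 (1.63 ± 0.18), and 3 were lower.

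**Figure D5:**
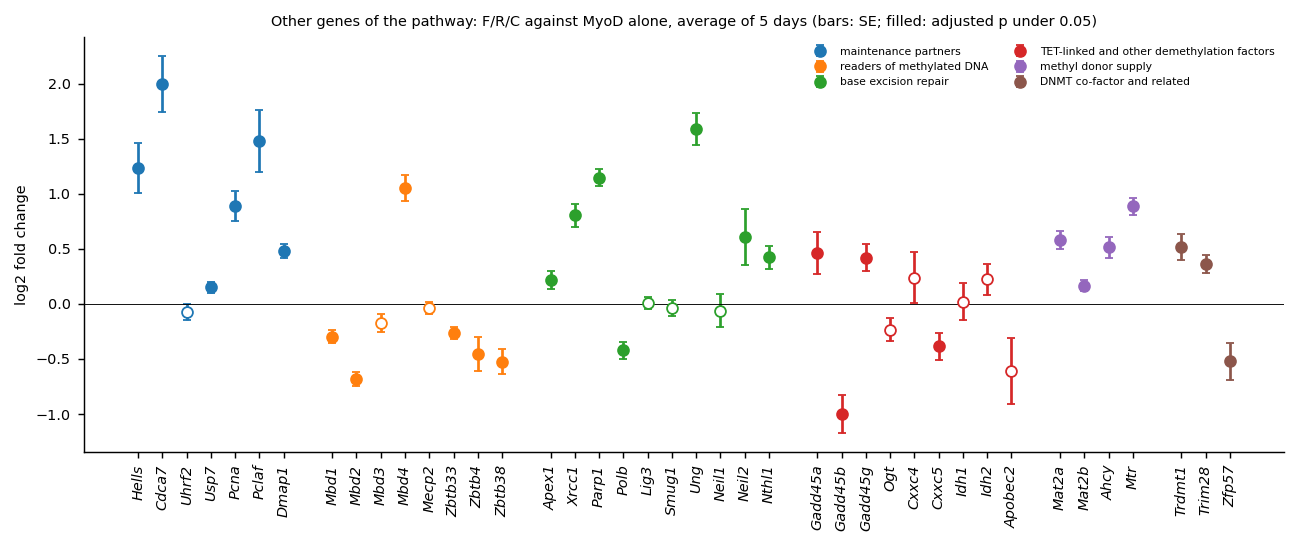
Log2 fold change of other pathway genes in the 5-day average of F/R/C against MyoD alone, with SE bars, coloured by role; filled points have an adjusted p under 0.05. Maintenance partners lie above 0 apart from Uhrf2, and readers lie below 0 apart from Mbd4.

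Transcript estimates separate the 2 Uhrf1 start sites, of which the printed stretch lies before the downstream. The upstream start, with 2 of 7 annotated transcripts, took 55.3%, 53.2% and 57.6% of Uhrf1 reads with F/R/C on day 10 and 22.7%, 37.6% and 42.6% in MyoD alone, with no overlap, while on days 2 to 8 the treatments overlapped. Its share was 76.0%, 95.5% and 92.3% in sorted iMPCs and 38.5% ± 5.22 in bulk iMPCs (SD, n = 3), and 71.5% ± 12.5 against 35.4% ± 10.5 in sorted and bulk myoblasts. The share thus moved with sorting in both cell types, and with the quantification setting that goes with it. It varied widely within some groups, at 50.2%, 31.6% and 75.8% in MEFs and 14.6%, 9.72% and 47.9% in MyoD alone on day 4. A pair of Uhrf1 transcripts, of 3586 and 3391 bases, have 3347 bases in common, so the split rests on the few bases that differ, and these shares were not tested. The closest relative counted here, Dnmt3c, had at most 5 reads in a library.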

How the data were processed

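The submitters' processing notes name bcl2fastq 2.19, Trimmomatic 0.36, kallisto 0.44, edgeR 3.28 and the build GRCm38.p6. The deposited files hold, per the file headers, the authors' estimated counts and TPM per transcript. Of 121843 transcripts, 121104 matched GENCODE M21, and estimated counts were summed per gene and rounded. TPM, scaled by the authors to a fixed sum, served only to compare genes. The 17325 genes passing filterByExpr were fitted over all 45 libraries with edgeR 4.0.16 (TMM, quasi-likelihood test, 30 residual degrees of freedom, R 4.3.3) with calls made below 0.05 after Benjamini-Hochberg adjustment. The fit was tested on simulated data. CPM use TMM library sizes. Alternatives were RLE factors, no filter, DESeq2 1.42.0, a replicate block, fits to the groups compared, each library left out, and a second call rule that also asks for a change of 1 or more on the log2 scale in either direction. Same-numbered libraries deviated together on days 2, 4 and 6 of F/R/C against MyoD alone (every pair's r at least 0.223). Named pathway genes are up to 4 per list with the largest called change in the 5-day average and up to 3 in another comparison. Members and lists were chosen with earlier results of these data known. The result of 1 gene of the methyl donor list is not reported here.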

Additional observations from a re-analysis of the deposited data

Results flagged for a closer look

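The F/R/C effect on Tet3 differed between day 10 and day 4 by 0.99 ± 0.26 (log2, adjusted p = 0.0208), by a direct test added after the values were seen. That call was lost without F/R/C day 4 replicate 1 (adjusted p = 0.0505) and without replicate 2 of every time-course group (adjusted p = 0.384). It was also lost with a minimum change of 1 on the log2 scale. For Dnmt3b the effect differed between day 10 and day 2 by 1.83 ± 0.59 (adjusted p = 0.0461), a call lost on leaving out any of 10 of the 12 libraries, with no filter, and in a fit to the libraries compared. Dnmt3a had every F/R/C library below every MyoD-alone library on day 4 and above on day 10. Each order taken alone held for 23.4% and 22% of all genes on those days. The difference between the F/R/C effects of those days, 1.32 ± 0.41, missed the threshold (adjusted p = 0.0526) but passed with the replicate block (adjusted p = 0.021), RLE factors (0.0459), DESeq2 (0.0223) and a fit to the libraries compared (0.0263). This Dnmt3a contrast was also added after the values were seen, and its adjusted p was at most 0.397 over all alternatives.

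Sorting for Pax7 moved iMPCs and myoblasts differently, by a direct test added after the values were seen, in 6 of the 8 genes. That contrast called 32.9% of all genes, and every gene of the S-phase panel was called as higher in it. Pax7 itself rose without overlap on sorting in iMPCs, from 39.3 to 81.3 CPM in bulk to 263 to 351 CPM. In myoblasts it overlapped, at 401 to 639 CPM in bulk and 349 to 813 CPM in sorted cells, and the part of this was not tested. The difference between the 2 sorting effects was 2.56 for Uhrf1 (adjusted p = 0.0145), 2.01 for Dnmt1 (adjusted p = 0.00217), 1.94 for Dnmt3b (adjusted p = 0.00893), 1.34 for Tdg (adjusted p = 9.38e-05), 1.11 for Tet3 (adjusted p = 0.00138) and -1.76 for Tet2 (adjusted p = 0.00752). Uhrf1 lost its call without replicate 3 of the bulk myoblasts or of the sorted myoblasts, and Dnmt3b, Tet2 and Tet3 did not pass in a fit to the 12 libraries compared.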

How the results depend on the processing

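No called value reversed. Values below are members called of 8. Apart from the minimum change, the share of all genes called under each alternative is not given here. A lower count may therefore not be particular to these genes. With a minimum change of 1 on the log2 scale, which 3.47% (the change from day 4 to day 10) to 35.5% (bulk iMPCs against MEFs) of all genes passed, the counts became 3 for the 5-day average (from 5), 0 on day 4 (from 2), 1 for MyoD day 2 against MEFs (from 2), 1 for F/R/C day 2 against MEFs (from 3), 3 for bulk iMPCs against MEFs (from 5), 1 for bulk iMPCs against F/R/C day 10 (from 2) and 0 for the change from day 4 to day 10 (from 1). Without replicate 2 of every time-course group, an alternative added after seeing the data, they became 0 on day 4, 1 on day 6 (from 3), 3 on day 10 (from 6), and 0 for the changes from day 2 and from day 4 to day 10 (from 1 each). In fits to the groups compared they were 1 on day 2 (from 0), 1 for bulk iMPCs against bulk myoblasts (from 4), 3 for the change from day 4 and 3 for the difference in sorting effects (from 6). With no filter, day 4 gave 1 and the change from day 2 gave 0. RLE factors gave 2 for the change from day 4. DESeq2 gave 2 and 3 for the changes from day 2 and day 4.

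Leaving out each library gave 1 to 2 on day 4, 0 to 2 and 0 to 3 for the changes from day 2 and day 4, 1 to 3 for MyoD day 2, MyoD day 10 and F/R/C day 2 against MEFs, 1 to 4 for bulk iMPCs against F/R/C day 10 and 0 to 1 for sorted against bulk myoblasts. The replicate block gave 2 and 3 members for the changes from day 2 and day 4. It was numbered separately for the myoblast libraries and for all others, so iMPCs and myoblasts share no block. Between those cell types the block fit compares the fitted levels of replicate 3, not the group means. There the Uhrf1 call of Pax7-positive iMPCs against Pax7-positive myoblasts was lost (1.97, adjusted p = 0.0671), and this loss does not bear on pairing by number. The replicate block gained 8 calls in all and lost that 1, of 152 values. The cause of these changes was not tested. Dnmt3b, with as few as 6 reads, is the gene that depth limits most.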
